A study of Mus musculus with 20 samples.

Results

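Gata1, Klf1, Gfi1b, Zfpm1, Tal1, Lmo2, Ldb1 and Nfe2 encode the transcription factors and cofactors that direct the erythroid branch of blood formation. The set was given as a list of symbols, each symbol matched a single Ensembl ID, and the set makes up 8 of the 46078 gene IDs in the deposited table. The study asked how leukaemia-associated Idh1 and Idh2 alleles and loss of Tet2 alter gene expression in immature blood cells. The cells were LSK cells of mouse bone marrow, sorted for the absence of lineage markers and the presence of cKit and Sca1, a fraction of stem cells and multipotent progenitors from which the erythroid lineage arises. Mutant IDH enzymes make 2-hydroxyglutarate, a metabolite that inhibits dioxygenases such as TET2, and TET2 oxidises methylated cytosine in DNA. Expression was measured by sequencing total RNA in 20 libraries and is given in TPM, transcripts per 1000000, which corrects for gene length.

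All mice were C57Bl/6J and 3 to 4 months old. Idh2R172K mice carried 1 conditional mutant allele with a Cre transgene (Idh2LSL-R172K/+;Vav-Cre). Tet2KO mice were Tet2-/-, and their label names no Cre. Idh1R132H mice (Idh1LSL-R132H/+;Vav-Cre) and Idh2R140Q mice (Idh2LSL-R140Q/+;Vav-Cre) also carried 1 conditional allele each, and WT mice were +/+;Vav-Cre. Vav-Cre is active in blood-forming cells broadly, and the LSL cassette blocks a mutant allele until Cre removes it. Each group had 4 libraries and each library was a pool of 2 mice. A difference in Cre and the loss of Tet2 cannot be told apart in comparisons with Tet2KO. A difference in handling, on which the labels are silent, could not be told apart there either. All 4 mutant groups were compared with the same 4 WT libraries.

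The libraries held 35.2 to 45.0 M assigned reads (M, 1000000), as recovered from TPM, with a median of 39.2 M. All 8 LSK markers (Kit, Ly6a, Cd34, Flt3, Slamf1, Procr, Mecom and Hlf) were present, and their summed level was 1485 to 1646 TPM in Idh2R172K, 1092 to 1733 TPM in Tet2KO and 1313 to 1561 TPM in WT. Tet2 RNA was at 5.74 to 12.1 TPM in Tet2KO and 6.67 to 9.23 TPM in WT. It did not separate the groups, and no label says which exons were deleted. Idh2 RNA was at 887 to 1020 TPM in Idh2R172K and 470 to 647 TPM in WT. The most abundant gene, Gm23935, took 7.55 to 8.13% of TPM in replicate 4 of WT and of each of the 3 Idh groups and 20.02% in Tet2KO replicate 2, against 9.57 to 13.52% in the other 15 libraries. These 5 libraries stand apart, and values without them are given beside the results they move.

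GATA1 is the zinc-finger factor that commits progenitors to the erythroid and megakaryocyte fates, and it works with its cofactor FOG1, the product of Zfpm1. On erythroid enhancers it meets a complex built from the DNA-binding TAL1, the bridging protein LMO2 and the adaptor LDB1, which holds enhancers and promoters together. KLF1 binds CACC-type sequences and is needed for adult beta-globin and many red cell genes, GFI1B is a repressor that recruits the demethylase LSD1, and NFE2 pairs with small Maf proteins at globin and platelet genes. Several of these factors (Lmo2, Tal1, Ldb1 and Gfi1b) are also known to act in blood stem cells.

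Promoter sequences are shown for Gata1 and Klf1, the pair whose RNA differed most between the groups, and for Gfi1b, whose group ranges overlapped in every comparison. They come from RefSeq on GRCm38.p6, which held starts for 6 of the 8 genes (not for Lmo2 or Nfe2), and cover the 250 bases before a start. For Klf1 only the 196 bases before its own GENCODE exon are shown. Capitals mark matches on either strand to the GATA forms AGATAA or AGATAG and TGATAA or TGATAG, and to the CACC-type form CCNCNCCC.
Gata1 promoter (chrX:7967911-7968160, minus strand): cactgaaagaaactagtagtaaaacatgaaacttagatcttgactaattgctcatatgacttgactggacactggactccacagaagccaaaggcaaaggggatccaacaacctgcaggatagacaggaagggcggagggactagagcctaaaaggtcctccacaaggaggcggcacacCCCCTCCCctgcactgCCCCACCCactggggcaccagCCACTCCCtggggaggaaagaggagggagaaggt
Klf1 promoter (chr8:84901732-84901927, plus strand): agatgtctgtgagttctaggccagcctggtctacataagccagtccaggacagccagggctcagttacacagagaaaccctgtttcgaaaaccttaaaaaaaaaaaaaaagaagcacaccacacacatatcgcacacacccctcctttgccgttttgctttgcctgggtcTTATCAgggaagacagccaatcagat
Gfi1b promoter (chr2:28621983-28622232, minus strand): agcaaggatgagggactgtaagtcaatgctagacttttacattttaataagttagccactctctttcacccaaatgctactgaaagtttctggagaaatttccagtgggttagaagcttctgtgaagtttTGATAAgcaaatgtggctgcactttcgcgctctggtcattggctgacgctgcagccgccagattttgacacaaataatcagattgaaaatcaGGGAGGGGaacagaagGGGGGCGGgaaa
The Gata1 window held 3 CACC-type matches, at 71 to 64, 55 to 48 and 34 to 27 bases before the start, and no GATA form. It lies inside the gene as GENCODE annotates it (X, 7959260 to 7978071). The Klf1 window (the gene is at chromosome 8, 84901928 to 84905291, plus strand) held 1 GATA form, 80 to 75 bases before the start. The Gfi1b window (gene at chromosome 2, 28609450 to 28621982, minus strand) held 1 GATA form at 120 to 115 bases and 2 CACC-type matches at 28 to 21 and 12 to 5 bases before the start. Of 32851 mouse windows of 250 bases, 26.5% held a GATA form and 45.9% a CACC-type match, so single matches are common. Over the 196 bases that match the Klf1 window in place and length, the shares were 22.8% and 35.5%.

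Gata1 and Klf1 were far lower in Idh2R172K than in WT, lower to a lesser extent in Tet2KO, and not called in Idh1R132H or Idh2R140Q. The other 6 factors were not called in any comparison with WT. The plot of the factors by library shows all values.

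**Figure D1:**
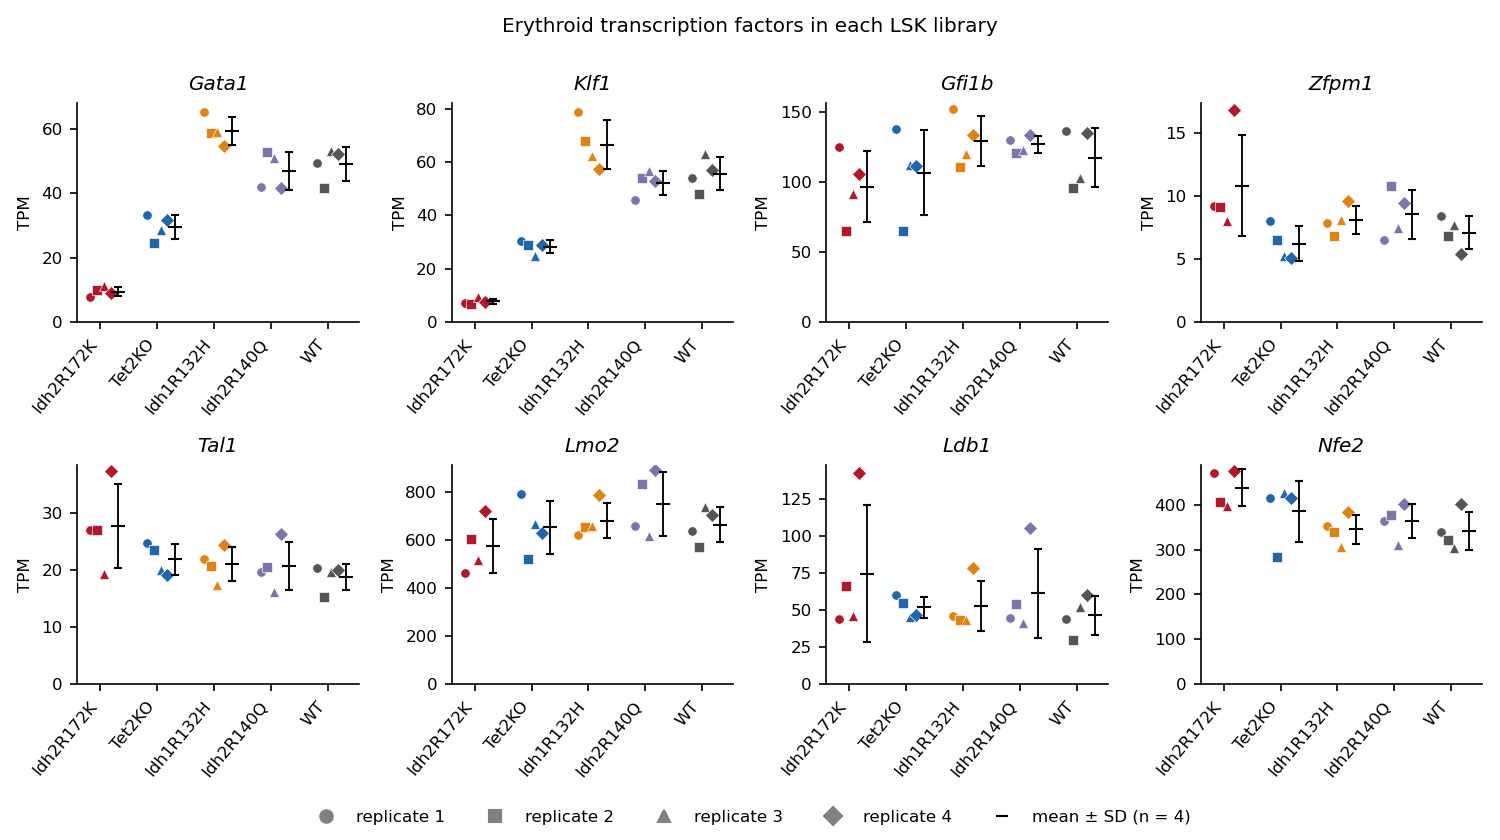
Level of each of the 8 factors in TPM (y axis, starting at 0) in each library, by group (x axis). Points are libraries with a shape for each replicate number, and the bar beside them is the mean ± SD (n = 4). For Gata1 and Klf1 the Idh2R172K points lie below all others and the Tet2KO points lie between them and the remaining groups, while the other factors overlap between Idh2R172K and WT.

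Gata1 had 7.77, 9.86, 11.13 and 9.04 TPM in the Idh2R172K libraries, against 49.36, 41.45, 52.92 and 52.21 TPM in WT. The highest Idh2R172K value was far under the lowest WT value. Its mean was 9.45 ± 1.41 TPM in Idh2R172K and 49.0 ± 5.25 TPM in WT (SD, n = 4 each), which is 4.79-fold lower on the TPM + 1 scale on which all differences were fitted. Klf1 had 7.22, 6.9, 9.2 and 7.65 TPM in Idh2R172K, against 54.01, 48.2, 63.23 and 57.22 TPM in WT. The ranges were again apart, and the fitted difference was 6.48-fold. The log2 differences were -2.26 ± 0.12 (SE) for Gata1 and -2.70 ± 0.12 for Klf1, with adjusted p-values of 5.09e-10 and 2.9e-11 in limma. By p-value Klf1 ranked 4 and Gata1 ranked 13 among the 14176 genes tested. Calls were made at an adjusted p under 0.05, and 2 of the 8 factors were called in Idh2R172K against WT, where 15.4% of all tested genes were called. Depth was ample for these levels, since Gata1 had 260 to 331 reads in Idh2R172K libraries and 1392 to 1725 in WT, and Klf1 had at least 129 in each. In sorted bulk cells, fewer cells of a type and less RNA per cell cannot be told apart.

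In Tet2KO, Gata1 had 33.22, 24.64, 28.45 and 31.7 TPM, all below the WT libraries. Klf1 had 30.51, 28.73, 24.87 and 28.89 TPM, also below every WT library. The means were 29.5 ± 3.80 TPM for Gata1 and 28.25 ± 2.39 TPM for Klf1 in Tet2KO, against 49.0 ± 5.25 and 55.7 ± 6.28 TPM in WT (SD, n = 4 each). The fitted falls were 1.64-fold for Gata1 (log2 -0.72 ± 0.12, adjusted p = 0.00568) and 1.93-fold for Klf1 (log2 -0.95 ± 0.12, adjusted p = 0.000457). In Tet2KO against WT 2 of the 8 factors were called, beside 7.05% of all tested genes. In a fit of Tet2KO and WT alone the Gata1 call was lost (adjusted p = 0.072, in a range of 0.000307 to 0.072 over its alternatives), and Klf1 was called.

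In Idh1R132H, Gata1 had 65.16, 58.52, 58.84 and 54.68 TPM, and all 4 values lay above the highest WT value of 52.92 TPM. Klf1 had 78.66, 67.77, 62.23 and 57.23 TPM, which overlapped with WT. The differences were 0.27 ± 0.12 for Gata1 and 0.25 ± 0.12 for Klf1 on the log2 scale, with 95% intervals of 0.01 to 0.53 and 0.00 to 0.49. With unadjusted p-values of 0.0399 and 0.0475 neither passed adjustment over all genes (adjusted p = 1 for both). In Idh1R132H against WT limma called 0 of the 8 factors and 0.00705% of all tested genes. The count without adjustment was 2 factors (p under 0.05), beside 229 of all 14176 genes tested. Limma-voom on reads rebuilt from the TPM also called 0 factors.

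Idh2R140Q gave values near WT. Gata1 had 41.8, 52.82, 50.77 and 41.53 TPM and Klf1 had 45.6, 53.85, 56.52 and 52.76 TPM, and both overlapped with WT. The log2 differences were -0.07 (95% interval -0.33 to 0.19) for Gata1 and -0.09 (-0.33 to 0.16) for Klf1. The count in Idh2R140Q against WT was 0 factors, with 0% of all tested genes called by limma, and limma-voom called 0 factors. Without adjustment 0 factors passed (p under 0.05), beside 407 of all 14176 genes tested. Both intervals ended short of the falls fitted in Idh2R172K and Tet2KO.

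**Figure D2:**
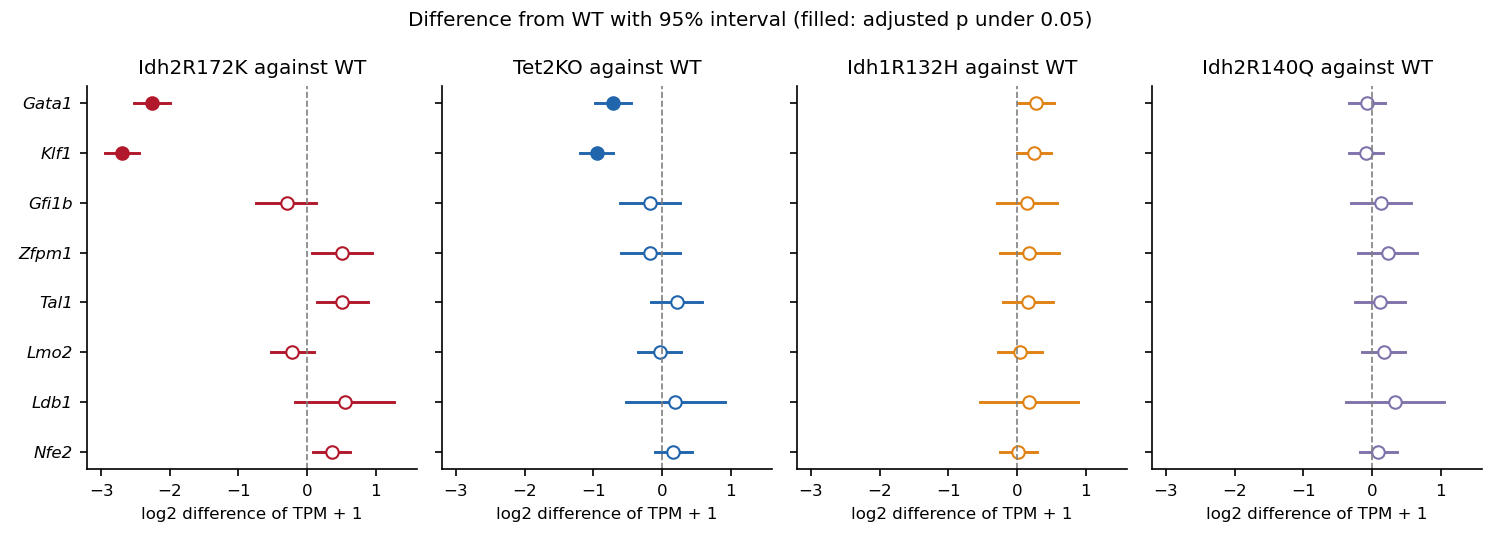
Log2 difference of TPM + 1 from WT (x axis) for each factor (rows) in the 4 mutant groups (panels), with 95% intervals. Filled points have an adjusted p under 0.05. Gata1 and Klf1 are filled in Idh2R172K and Tet2KO, with the larger falls in Idh2R172K, and no point is filled in Idh1R132H or Idh2R140Q.

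The mutants were also compared directly. Against Idh2R140Q, which alters the same enzyme at another residue, Gata1 was 4.57-fold lower in Idh2R172K (log2 -2.19 ± 0.12, adjusted p = 9.83e-10) and Klf1 was 6.10-fold lower (log2 -2.61 ± 0.12, adjusted p = 4.18e-11). That comparison called 2 of the 8 factors and 10.5% of all tested genes. Against Idh1R132H the falls in Idh2R172K were 5.80-fold for Gata1 and 7.70-fold for Klf1, and 2 factors and 13.5% of tested genes were called. With the replicate number as a block the count against Idh1R132H was 4 (Gfi1b and Nfe2 added) and against Idh2R140Q it was 3 (Gfi1b added). Counts over all genes move between settings too, over 1242 to 4567 against Idh1R132H and 894 to 3071 against Idh2R140Q. The shares above therefore belong to the main fit only.

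Tet2KO differed from Idh2R172K in 3 factors, beside 26.8% of all tested genes. Gata1 was 2.92-fold higher in Tet2KO than in Idh2R172K (log2 1.55 ± 0.12, adjusted p = 6.55e-08) and Klf1 was 3.35-fold higher (log2 1.75 ± 0.12, adjusted p = 7.35e-09). The third was Zfpm1, at -0.67 ± 0.21 (adjusted p = 0.0233), a call that did not hold under every alternative and is described with that gene. Tet2KO against Idh1R132H called Gata1 (log2 -0.99 ± 0.12, adjusted p = 0.000322) and Klf1 (log2 -1.20 ± 0.12, adjusted p = 2.13e-05), 2 factors beside 13.5% of tested genes. Tet2KO against Idh2R140Q called the same pair, at -0.65 ± 0.12 (adjusted p = 0.0116) and -0.86 ± 0.12 (adjusted p = 0.00137), beside 9.54% of tested genes, and neither call held when these groups were fitted alone. Over the alternatives the adjusted p was 0.00155 to 0.113 for Gata1 and 0.000337 to 0.0962 for Klf1, with the highest values from that fit.

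Between the other Idh alleles, both genes were lower in all 4 Idh2R140Q libraries than in any Idh1R132H library, at -0.34 ± 0.12 on the log2 scale for each. The adjusted p was 1, so neither was called. Limma called 0 factors and 0.00705% of all tested genes there, and limma-voom called 0 factors. Without adjustment 2 factors passed (p of 0.0127 and 0.00975), beside 274 of all 14176 genes at p under 0.05. How many of all genes had ranges that lay apart in this way was not counted.

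The fitted falls were larger for Klf1 than for Gata1, a difference between genes that was not tested. There were 92.9, 70.0, 82.6 and 84.6 TPM of Klf1 per 100 TPM of Gata1 in the Idh2R172K libraries, 91.9, 117, 87.4 and 91.1 in Tet2KO and 109, 116, 119 and 110 in WT. Each Idh2R172K library lay below each WT library. Tet2KO overlapped with Idh2R172K, and it overlapped with WT through replicate 2, a library that stands apart. The other Tet2KO libraries, at 87.4 to 91.9, lay below WT. In Idh1R132H the range was 105 to 121 and in Idh2R140Q 102 to 127.

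Gata1 was also set against 3 factors of other or earlier cells. GATA2 occupies GATA sites before GATA1 does, PU.1 (Spi1) is a myeloid factor that opposes GATA1, and FLI1 is a stem cell and megakaryocyte factor that opposes KLF1. Their levels were 186.8 to 295.4 TPM for Gata2, 185.2 to 202.8 TPM for Spi1 and 232.5 to 265 TPM for Fli1 in Idh2R172K, against 138.3 to 226.4, 162.4 to 207.1 and 176 to 197.8 TPM in WT. None was called in Idh2R172K against WT (adjusted p = 0.207, 0.202 and 0.0615). For Fli1, though, each Idh2R172K library lay above each WT library. Per 100 TPM of Gata2 there were 3.06 to 5.96 TPM of Gata1 in Idh2R172K, 17.3 to 28.7 in Tet2KO and 23.1 to 38.3 in WT. Per 100 TPM of Spi1 there were 4.2 to 5.49 TPM in Idh2R172K, 12.0 to 15.3 in Tet2KO and 25.1 to 30.7 in WT, so all 3 groups lay apart for this ratio. Per 100 TPM of Fli1 there were 2.93 to 4.22 TPM in Idh2R172K, 15.1 to 24.9 in Tet2KO and 21 to 30.1 in WT. For Gata2 and Fli1 the overlap of Tet2KO with WT came from Tet2KO replicate 2, at 28.7 and 24.9. Without it Tet2KO reached 20.9 per 100 TPM of Gata2 and 18.4 per 100 TPM of Fli1, below every WT library. In Tet2KO, Gata2 was at 85.89 to 180.4 TPM, Spi1 at 200.9 to 217.4 TPM and Fli1 at 98.92 to 204.7 TPM, and none was called against WT. Against Idh2R172K, Gata2 (log2 -0.66, adjusted p = 0.0378) and Fli1 (log2 -0.64, adjusted p = 0.00512) were lower in Tet2KO. Libraries that stand apart enlarge both differences. Tet2KO replicate 2 held the lowest values, and its fellow libraries had 151.4 to 180.4 TPM of Gata2 and 172.6 to 204.7 TPM of Fli1. Idh2R172K replicate 4 held the highest Gata2 value, 295.4 TPM. The ranges of Tet2KO and Idh2R172K did not overlap for either gene, and fits without those libraries are not given for them.

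**Figure D3:**
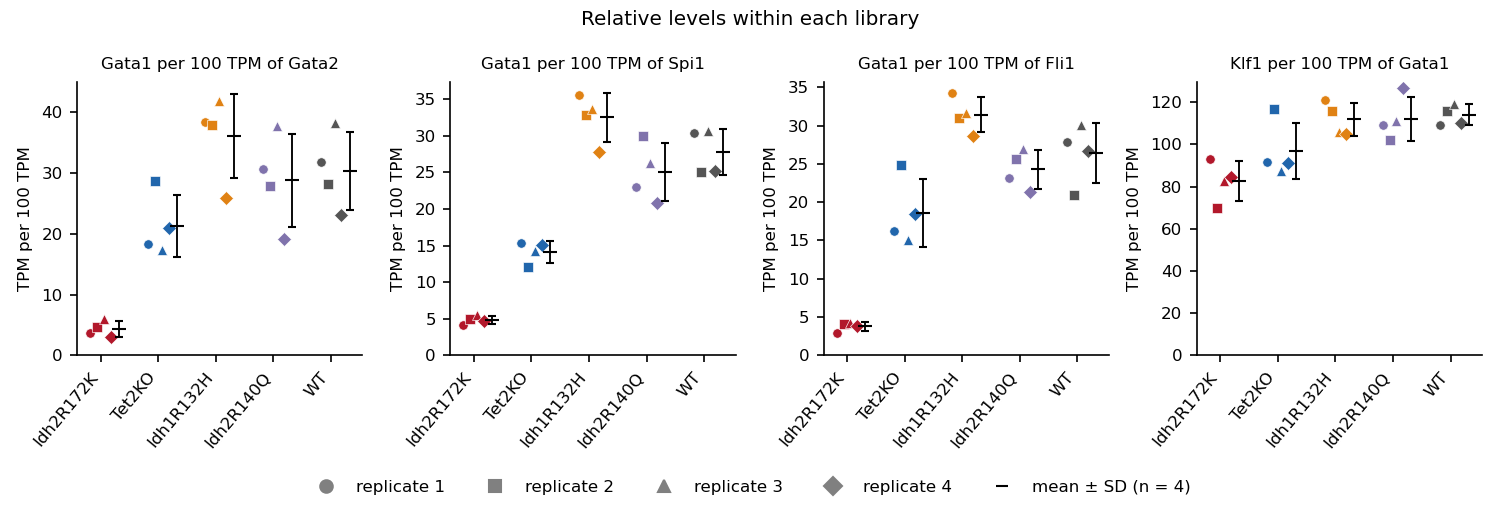
Gata1 per 100 TPM of Gata2, Spi1 and Fli1, and Klf1 per 100 TPM of Gata1 (y axes, TPM per 100 TPM), in each library by group (x axis). Points are libraries, with the mean ± SD beside them (n = 4). The Gata1 ratios in Idh2R172K stay at or below 5.96, and the lowest WT ratio is 21.

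Gfi1b, the repressor, had 124.94, 64.85, 91.46 and 105.69 TPM in Idh2R172K and 138.21, 64.97, 112.47 and 111.49 TPM in Tet2KO, against 136.37, 95.7, 102.87 and 135.56 TPM in WT. All 3 groups overlapped, and replicate 2 was the lowest library in each. The log2 difference was -0.30 (95% interval -0.74 to 0.13) in Idh2R172K and -0.17 (-0.61 to 0.26) in Tet2KO. Gfi1b had 152.45, 111.1, 120.49 and 133.77 TPM in Idh1R132H and 130.1, 120.56, 123.36 and 134.07 TPM in Idh2R140Q, and in every same-number pair the Idh2R172K library was the lower one. Idh2R172K differed by -0.45 from Idh1R132H (adjusted p = 0.182) and by -0.43 from Idh2R140Q (adjusted p = 0.247) on the log2 scale, which was not called. With the replicate number as a block, which pairs the libraries of these groups, both were called (adjusted p = 0.0185 and 0.028, in ranges of 0.0185 to 0.496 and 0.028 to 0.626 over the alternatives).

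Zfpm1, the GATA1 cofactor, was the least abundant of the 8 in WT. It had 9.24, 9.16, 8.05 and 16.79 TPM in Idh2R172K, 8.04, 6.54, 5.25 and 5.06 TPM in Tet2KO and 8.42, 6.86, 7.66 and 5.4 TPM in WT. Idh2R172K and WT overlapped (log2 0.51 ± 0.21, adjusted p = 0.108, and 0.18 without the libraries that stand apart), whereas the lowest Idh2R172K value lay just above the highest Tet2KO value. The call between Tet2KO and Idh2R172K was lost without Idh2R172K replicate 4, without Tet2KO replicate 3 or without Tet2KO replicate 4, and in a fit of those groups alone, with adjusted p-values of 0.0125 to 0.113 over its alternatives.

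Among the complex of Tal1, Lmo2 and Ldb1, no gene was called in any comparison. Tal1 had 27.07, 27.12, 19.35 and 37.37 TPM in Idh2R172K, against 20.3, 15.34, 19.66 and 19.94 TPM in WT. In 3 of the 4 Idh2R172K libraries it lay above all WT libraries, but the test missed the threshold (log2 0.51 ± 0.17, adjusted p = 0.0573). It was called under 6 of 22 alternatives, among them the fit without Idh2R172K replicate 3, the library at 19.35 TPM. Its levels were 19.21 to 24.76 TPM in Tet2KO, 17.33 to 24.42 TPM in Idh1R132H and 16.18 to 26.34 TPM in Idh2R140Q.

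Lmo2 was the most abundant of the 8 in every group. It had 460.92, 605.1, 515.82 and 719.77 TPM in Idh2R172K and 659.57, 831.68, 616.64 and 891.07 TPM in Idh2R140Q, against 637.44, 572.22, 735.71 and 704.74 TPM in WT. Against WT the difference was -0.22 (95% interval -0.53 to 0.10) in Idh2R172K. Against Idh2R140Q it was -0.38 ± 0.15 (adjusted p = 0.13), and this one was called under 6 of 22 alternatives.

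Ldb1 varied most between libraries in the Idh groups and WT. It had 43.82, 66.01, 45.98 and 142.04 TPM in Idh2R172K, 45.94, 43.25, 42.99 and 77.95 TPM in Idh1R132H and 44.31, 54.02, 41.3 and 105.4 TPM in Idh2R140Q, against 44.04, 29.43, 51.66 and 59.87 TPM in WT. In Tet2KO it had 45.15 to 60.37 TPM. Replicate 4 was the highest library in each Idh group and in WT, and it is also the replicate with the low share of Gm23935. The 95% interval of the Idh2R172K difference from WT was accordingly wide, at -0.17 to 1.27 around 0.55, and without the libraries that stand apart the difference was 0.32, also not called. Exons of Ldb1 overlap those of Pprc1 on the opposite strand, which reached 84.74 TPM, and since the strand setting of the counting is not given in the sources used here, reads of the pair cannot be told apart.

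Nfe2, the partner of small Maf proteins, had 471.43, 406.25, 398.04 and 474.81 TPM in Idh2R172K, against 338.02, 320.16, 304.12 and 401.4 TPM in WT. WT replicate 4 reached into the Idh2R172K range and the other WT libraries lay below it. The difference of 0.36 ± 0.13 had an adjusted p of 0.0629. It was called under 10 of 22 alternatives, among them the fit without WT replicate 4 and limma-voom on the rebuilt reads. Idh1R132H had 352.74, 338.98, 305.04 and 383.41 TPM, all below Idh2R172K, and the difference of Idh2R172K from it (log2 0.34 ± 0.13, adjusted p = 0.087) was called under 9 of 22 alternatives, the replicate block among them. In Tet2KO the levels were 415.22, 282.39, 426.9 and 414.4 TPM (log2 0.16 ± 0.13, adjusted p = 0.429), with replicate 2 far below the rest. Without the libraries that stand apart Nfe2 was called there too. In that setting the median log2 difference over all genes also moved, to 0.16 from 0.02, and 89.5% of all calls were higher in Tet2KO.

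The order of the 8 levels shifted with Gata1 and Klf1. In WT the means ran from Lmo2 at 662.5 TPM through Nfe2 at 340.9 and Gfi1b at 117.6 to Klf1 at 55.7, Gata1 at 49.0 and Ldb1 at 46.25 TPM, whose ranges overlapped, and then to Tal1 at 18.8 and Zfpm1 at 7.09 TPM. In Idh2R172K, Gata1 and Klf1 were the lowest, ranked 7 and 8 and overlapping with each other, and Gata1 also overlapped with Zfpm1 at 10.81 TPM. In Tet2KO they ranked 5 and 6, with Klf1 at 24.87 to 30.51 TPM just above Tal1 at 19.21 to 24.76 TPM.

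Some pairs of factors also varied together within groups. After subtracting group means from log2(TPM + 1), Gata1 and Klf1 had a Pearson r of 0.67 with each other over the 20 libraries, and Gata1 had r of -0.24 with Tal1 and -0.04 with Ldb1. Klf1 had r of -0.19 to 0.14 with the factors other than Gata1, and -0.22 to 0.33 without the libraries that stand apart. Tal1 and Ldb1 had r of 0.86, Lmo2 and Ldb1 0.81, and Gfi1b and Nfe2 0.75. Without the libraries that stand apart (n = 15), r was 0.82 for Gata1 and Klf1, 0.02 for Gata1 and Tal1, 0.59 for Gata1 and Ldb1, 0.69 for Tal1 and Ldb1, 0.88 for Lmo2 and Ldb1 and 0.52 for Gfi1b and Nfe2. Replicates 4 of the Idh groups and WT share in the values for Ldb1, which deviated from its group mean by 1.09 in Idh2R172K, 0.61 in Idh1R132H, 0.88 in Idh2R140Q and 0.41 in WT.

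**Figure D4:**
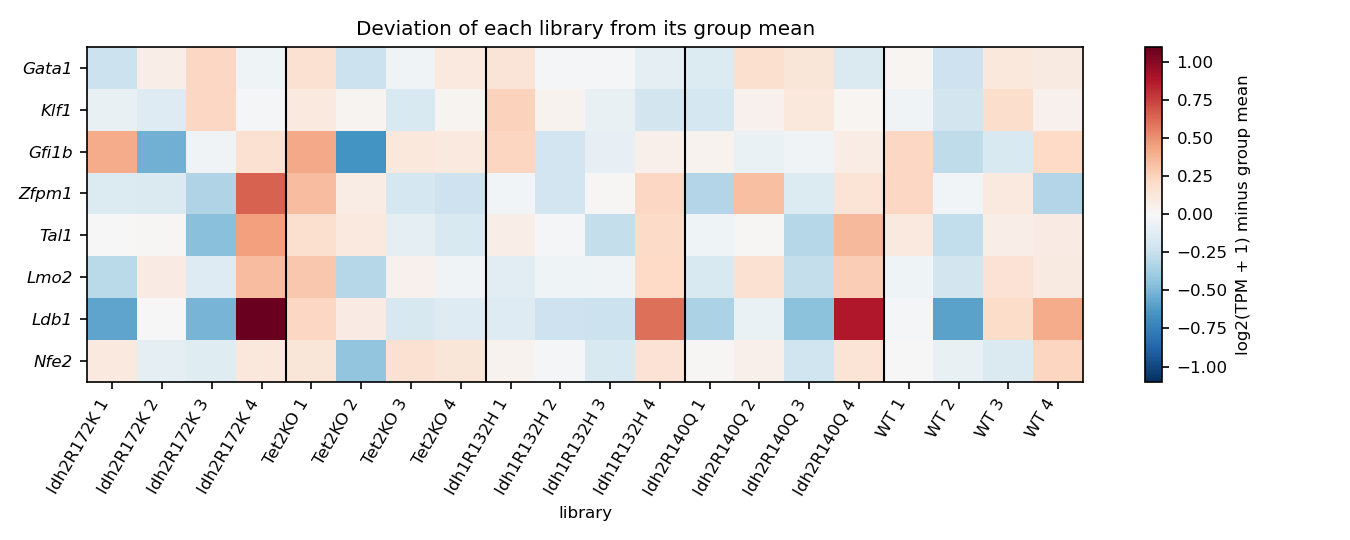
Deviation of each library (columns, grouped by genotype) from its group mean in log2(TPM + 1) for each factor (rows), on a colour scale from blue (below the mean) to red (above). Ldb1, Tal1 and Lmo2 are above their group means in replicate 4 of Idh2R172K, Idh1R132H, Idh2R140Q and WT, and Gfi1b and Nfe2 are lowest in Tet2KO replicate 2.

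The genes whose levels ran closest to Gata1 over the 20 libraries were Ces2g (r = 0.987), Sphk1 (0.984) and Ermap (0.981). For Klf1 they were Smim1, Slc38a5 and Sphk1, all at 0.988. Ermap and Smim1 encode proteins of the red cell membrane that carry blood group antigens, and Sphk1 is a sphingosine kinase. Ces2g averaged 3.56 ± 0.962 TPM in Idh2R172K and 20.1 ± 5.77 TPM in Tet2KO, against 49.6 ± 8.85 TPM in WT (SD, n = 4 each). These r values describe libraries that share a few large group differences. After the group means were subtracted, Klf1 was again closest to Smim1 (0.816), while Gata1 was closest to Rflnb (0.788). The other factors were closest in level to Slc5a6 (0.871, Gfi1b), Fam8a1 (0.9, Zfpm1), Bcr (0.904, Tal1), Camkk2 (0.926, Lmo2), Ythdc1 (0.984, Ldb1) and Sqstm1 (0.972, Nfe2).

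Listed erythroid targets of GATA1 and KLF1, which make membrane proteins, haem and globin, were examined next. In Idh2R172K against WT 18 of 37 tested targets fell, 1 rose and 18 were not called, and the median log2 difference was -0.58, beside 0.11 over all genes tested. The share called was 51.4%, beside 15.4% of all genes. Car1, a carbonic anhydrase of early erythroid cells, fell by 4.36 ± 0.25 on the log2 scale, to 25.15 ± 10.66 TPM in Idh2R172K against 498.5 ± 80.97 TPM in WT. Log2 differences of -2.83 ± 0.14 for Sphk1, -2.82 ± 0.18 for Ermap and -2.75 ± 0.18 for Rhd, the gene of a blood group membrane protein, followed. The single rise was Bcl2l1, which encodes the survival protein BCL-XL, at 54.6 ± 2.62 TPM in Idh2R172K and 24.1 ± 0.868 TPM in WT (log2 1.15 ± 0.14, adjusted p = 7.96e-06). Without the libraries that stand apart, 22 targets fell and 4 rose.

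In Tet2KO against WT 11 of the 37 targets fell, 5 rose and 21 were not called, with a median of -0.21 beside 0.02 over all genes. The share called was 43.2%, beside 7.05% of all genes. Sphk1 stood at -1.09 ± 0.14, Ermap at -1.20 ± 0.18 and Rhd at -1.01 ± 0.18 on the log2 scale. The 5 that rose were the globins Hbb-bs, Hbb-bt, Hba-a1 and Hba-a2 and the haem enzyme gene Alas2. Alas2 lay near the floor, at 1.508 ± 0.1515 TPM in Tet2KO and 0.5337 ± 0.08552 TPM in WT. It passed the filter of 1 TPM on average only through its level in Tet2KO, so its call adds no support of its own. Hbb-bs was at 21.09 ± 1.475 TPM in Tet2KO and 9.31 ± 1.575 TPM in WT (log2 1.11 ± 0.21, adjusted p = 0.00802). Near-identical globin copies can exchange reads, so the values of single globin genes are uncertain. The summed level of 9 mature red cell markers, these 5 among them, was 95.44 to 134.1 TPM in Tet2KO, 45.6 to 70.29 TPM in Idh2R172K and 51.18 to 82.5 TPM in WT. The 7 macrophage markers summed to 119.2 to 153.5 TPM in Tet2KO and 61.84 to 79.72 TPM in WT, and 2 of them rose (C1qb and C1qc). That is 28.6% of these markers, beside 7.05% of all genes. The part of other cells in the target values was not tested. Without the libraries that stand apart 11 targets rose and 9 fell, and in a fit of Tet2KO and WT alone 1 rose and 1 fell. Leaving out those libraries also moved the median over all genes to 0.16, with 89.5% of all calls higher in Tet2KO.

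**Figure D5:**
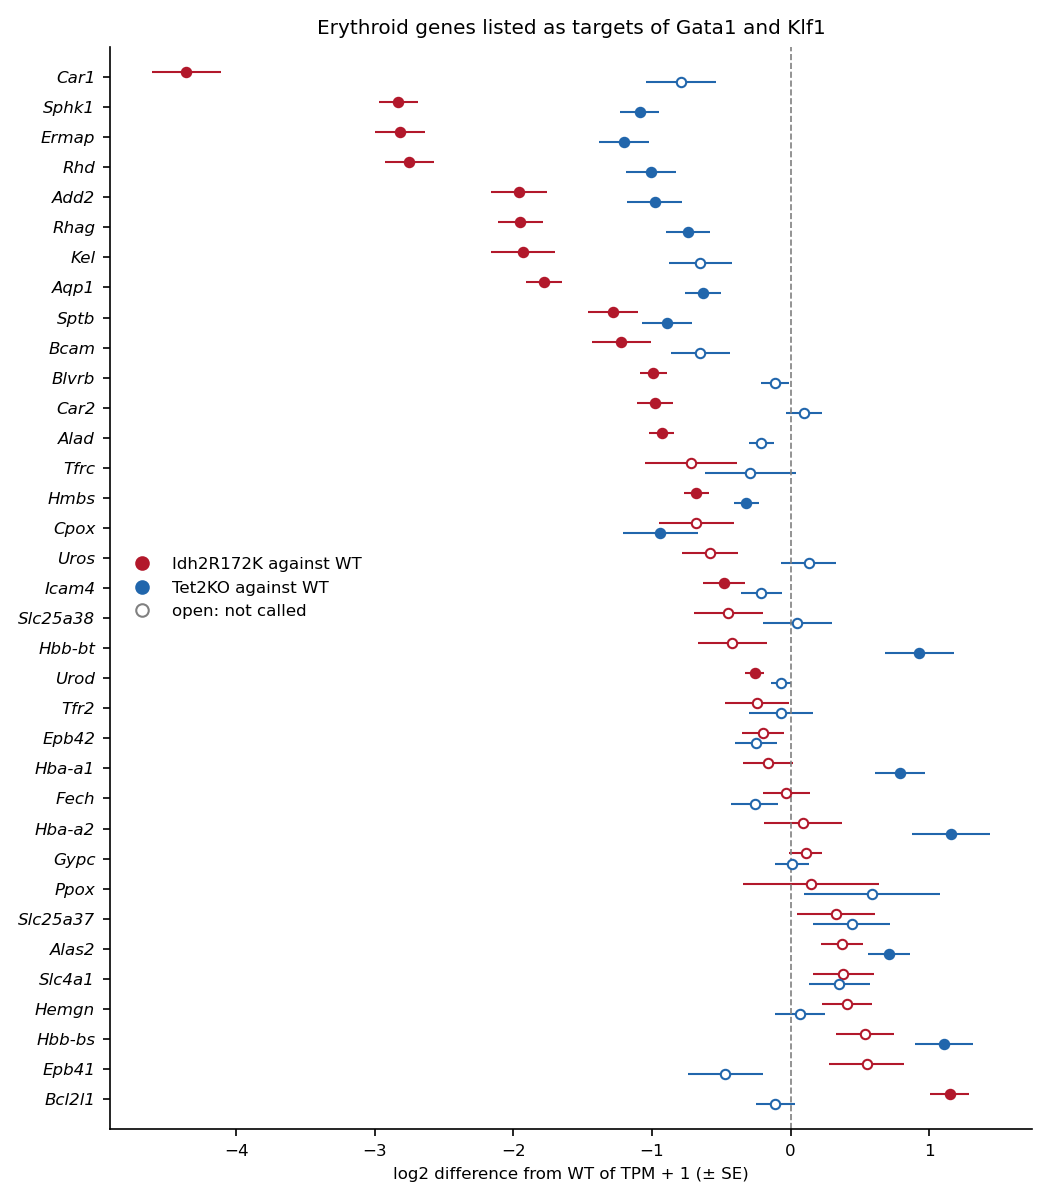
Log2 difference from WT of TPM + 1, with its SE (x axis), of 35 of the 37 tested erythroid target genes (rows) in Idh2R172K (red) and Tet2KO (blue). Filled points are called at an adjusted p under 0.05. The genes at the top, from Car1 to Aqp1, fell in Idh2R172K with smaller differences in Tet2KO, and the globins and Alas2 are filled in Tet2KO, on the right, and open in Idh2R172K.

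Other regulators of erythropoiesis were mostly not called. Epor, the erythropoietin receptor gene, had 8.74 ± 0.474 TPM in Idh2R172K and 14.8 ± 2.25 TPM in Tet2KO, against 21.5 ± 2.25 TPM in WT (SD, n = 4 each). The log2 difference was -1.20 ± 0.12 in Idh2R172K (adjusted p = 1.59e-06) and -0.52 ± 0.12 in Tet2KO (adjusted p = 0.0228). Of the 15 genes of this list, which also holds Myb, Bcl11a and Stat5a, Foxo3 rose in Idh2R172K (log2 0.61 ± 0.12) and the glucocorticoid receptor gene Nr3c1 fell in Tet2KO (log2 -0.39 ± 0.11), and no further member was called in either. The share called was 13.3% in each, beside 15.4% of all genes in Idh2R172K and 7.05% in Tet2KO.

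Most partners of the complexes were not called. Of 22 tested partners, 3 rose and 0 fell in Idh2R172K against WT, namely the acetyltransferase gene Crebbp (log2 0.47 ± 0.09), the LDB1-binding Ssbp2 (0.34 ± 0.08) and Runx1 (0.43 ± 0.11). In Tet2KO against WT only Ssbp2 was called, at 0.31 ± 0.08. The E proteins that pair with TAL1 (Tcf3, Tcf4 and Tcf12), the small Maf genes (Mafg, Mafk and Maff) and the GFI1B corepressors Kdm1a and Rcor1 were not called in either comparison. The called genes are 13.6% of the partners in Idh2R172K and 4.55% in Tet2KO, beside 15.4% and 7.05% of all genes tested. Under the alternatives 2 to 8 partners rose and 0 to 1 fell in Idh2R172K, and 0 to 9 rose and 0 to 4 fell in Tet2KO.

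Of 17 tested megakaryocyte targets of GATA1, FOG1 and NFE2, 5 rose and 3 fell in Idh2R172K against WT. The share called was 47.1%, beside 15.4% of all genes tested. Among the targets, Rab27b, a small GTPase gene of platelet granule release, rose by 1.23 ± 0.18 on the log2 scale. The log2 difference was -1.86 ± 0.28 for the platelet factor gene Pf4 and -1.65 ± 0.24 for Cavin2. In Tet2KO 2 of the 17 were called, Gp5 at -1.41 ± 0.32 and Vwf at -1.22 ± 0.28, both of which encode platelet adhesion proteins. That is 11.8% of the targets, beside 7.05% of all genes tested.

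Basophils, mast cells and eosinophils also use Gata1 and Gata2. Of 8 tested markers of these cells, 5 fell and 1 rose in Idh2R172K against WT. These are 75% of the markers, beside 15.4% of all genes tested. Log2 differences were -2.25 ± 0.18 for Ms4a2 and -1.91 ± 0.24 for Fcer1a, both parts of the IgE receptor, -2.64 ± 0.26 for the basophil protease gene Prss34 and 1.43 ± 0.21 for the mast cell protease gene Cpa3. The summed level of the 10 measured markers was 398.5 to 482.1 TPM in Idh2R172K and 428.2 to 591 TPM in WT. Ms4a2 was below 1 TPM in every Idh2R172K library, and Il5ra and Mcpt4 were below 1 TPM in every library of both groups. In Tet2KO 1 of the 8 rose (Prss34), which is 12.5% beside 7.05% of all genes. The part of such cells in the Gata1 values was not tested.

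Factors of other lineages and of stem cells were mixed in Idh2R172K, where 2 of 16 rose and 4 fell. These are 37.5% of the list, beside 15.4% of all genes. The log2 difference was -1.29 ± 0.19 for Irf8, a dendritic and monocyte factor, -1.54 ± 0.31 for Tcf7 and -0.66 ± 0.18 for Gata3, both T-lineage factors, and 0.34 ± 0.11 for Hhex. In Tet2KO against WT limma called 0 of the 16, beside 7.05% of all genes. Before adjustment 4 of the 16 had p under 0.05, beside 3765 of all 14176 genes. Limma-voom called 3 of the 16. Of the 143 tested genes of all lists, limma called 0 in Idh1R132H and 0 in Idh2R140Q against WT. The shares of all genes called were 0.00705% and 0%, so these counts say little about the lists. Before adjustment 7 and 5 of the 143 had p under 0.05, beside 229 and 407 of all 14176 genes. Limma-voom called 0 of the 143 in both. Of the 8 LSK markers, 2 fell in Idh2R172K (Flt3 and Ly6a) and 1 rose in Tet2KO (Ly6a, log2 0.79 ± 0.11). These are 25% and 12.5% of the markers, beside 15.4% and 7.05% of all genes. Against WT limma and limma-voom called 0 of 7 neutrophil markers in each of the 4 mutants, and 0 passed without adjustment. Limma called 15.4% of all genes in Idh2R172K, 7.05% in Tet2KO, 0.00705% in Idh1R132H and 0% in Idh2R140Q. In that order 4086, 3765, 229 and 407 of all 14176 genes passed without adjustment. Of 4 tested B lineage markers Vpreb1 rose and Cd79b fell in Idh2R172K, and of 3 tested T and NK markers Trbc2 rose in Tet2KO. These are 50% and 33.3% of very short lists, beside 15.4% and 7.05% of all genes.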

How the data were processed

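The submitters' processing notes name Trim Galore, STAR, featureCounts and the build mm10, with no role or order. Versions, annotation and strand setting are not given in the sources used here. The deposited values are TPM per Ensembl gene and library, each library summing to 1000000. The columns for Idh2R140Q carry a prefix that names IDH1 beside 140Q and were matched by that mutation.

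Symbols and exon lengths came from GENCODE M21 (45229 of 46078 IDs matched). Multiplying TPM by exon length gave read numbers, of which 90.0 to 91.0% of values up to 30 reads were whole within 0.1. Differences were fitted on log2(TPM + 1), which understates changes of low genes, with limma 3.58.1 (R 4.3.3), all 5 groups in 1 model, a variance trend and 15 residual degrees of freedom. Genes averaging 1 TPM or more entered (14176), and 2-sided p-values received Benjamini-Hochberg adjustment across them. All 8 factors passed. P-values measure the spread between pools. Same-number libraries had deviations from their group means correlated over 0.1 in all 4 pairs (0.15 to 0.54) in 4 comparisons. These were Idh1R132H with WT and the 3 among the Idh groups. The libraries count as paired there by the data only, since no label states a shared batch. The main fit and its p-values do not use this pairing, and the replicate block is given as an alternative. With the block no factor was called in Idh1R132H against WT or Idh2R140Q against Idh1R132H. Intervals are at 95%. Tables and figures used Python 3.11.15, pandas 2.3.3, numpy 2.4.6 and matplotlib 3.10.9, and the fit was tested on simulated data.

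The factors, gene lists and tests were chosen with earlier results of these data known. Named genes are the 8 factors, Gata2, Spi1 and Fli1, up to 4 called genes with the smallest p of each list per comparison with WT, and the genes most like each factor by Pearson r (the closest are printed). Hbb-bt, Hba-a2 and genes named as not called were added after values were seen. Some list members are not reported here by name. Alternatives were 2 scalings, rescaling without abundant genes, a pseudocount of 0.1, filters at 5 TPM and none, fits of 2 groups, no trend, library weights, a replicate block, covariates (Gm23935, Xist), leaving out 5 libraries or each single one, and, added after seeing the data, limma-voom on the rebuilt reads.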

Additional observations from a re-analysis of the deposited data

Results flagged for a closer look

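Each factor was searched in each group for a library far from the other 3, over 40 groups of 4, where chance marks about 1 in 20, and 4 were found. Zfpm1 was at 16.79 TPM in Idh2R172K replicate 4, beside 8.05 to 9.24 TPM in the other Idh2R172K libraries. Ldb1 was at 77.95 TPM in Idh1R132H replicate 4, beside 42.99 to 45.94 TPM in the others. Both are replicates 4, among the libraries with a low share of Gm23935. Nfe2 was at 282.39 TPM in Tet2KO replicate 2, the library with the highest share of Gm23935, beside 414.4 to 426.9 TPM. Tal1 was at 15.34 TPM in WT replicate 2, beside 19.66 to 20.3 TPM. The cause of these values was not tested.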

How the results depend on the processing

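Of 80 results, each a factor in a comparison, 15 were called, and 11 of these were called under all 22 alternatives that apply to each. Of the 65 not called, 52 were called under none. No called difference changed sign. Gata1 and Klf1 were called under every alternative in all 3 comparisons of Idh2R172K with WT, Idh2R140Q and Idh1R132H. In Idh2R172K against WT the count was 4 factors under median-of-ratios scaling (Lmo2 and Nfe2 added), and 4 under rescaling, library weights, the replicate block and the Gm23935 covariate (Tal1 and Nfe2 added). Against Idh2R140Q it was 4 under median-of-ratios scaling, the Gm23935 covariate and without the libraries that stand apart. Against Idh1R132H it was 4 under median-of-ratios scaling, library weights and the replicate block. Fits of 2 groups gave 1 factor (Klf1) for Tet2KO against WT and 0 for Tet2KO against Idh2R140Q, and the cause of these shifts was not tested. Without any single library the count was 2 to 3 for Idh2R172K against WT, Idh2R172K against Idh2R140Q and Tet2KO against Idh2R172K, 2 in the other comparisons with calls and 0 in those without. The replicate block added Gfi1b and Nfe2 against Idh1R132H, Gfi1b against Idh2R140Q and Tal1 and Nfe2 against WT in Idh2R172K, and it changed no Gata1 or Klf1 call. In comparisons other than the 4 named in the processing, same-number correlations were not over 0.1 in all 4 pairs. They were 0.10 to 0.45 for Idh2R140Q with WT and -0.02 to 0.40 for Idh2R172K with WT. In comparisons with Tet2KO they were -0.20 to 0.11. Of 20 libraries, 14 were closest to their own number. Counts over all genes ranged from 45 (2-group fit) to 5231 (library weights) for Tet2KO against WT and from 1371 (5 TPM filter) to 4641 (without the libraries that stand apart) for Idh2R172K against WT. For Idh2R172K they reached 3071 against Idh2R140Q (Gm23935 covariate) and 4567 against Idh1R132H (library weights). Factor counts under an alternative are thus not to be set beside the main shares of all genes. Target lists moved likewise, with 13 to 23 falls in Idh2R172K and 1 to 15 in Tet2KO.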
